A study of Homo sapiens with 12 samples.

Results

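RCC4 and UMRC2 human kidney cancer cells that carry an inducible FoxO fusion were examined before the inducer was added. The question was whether the fusion already moves FoxO-responsive genes on its own, which is called leak. The samples were the 6 vehicle arrays of a series of 12, chosen by their label, with ethanol for 12 h as the vehicle. The tested lines were RCC4 FoxO1, RCC4 FoxO3, UMRC2 FoxO1 and UMRC2 FoxO3, with 1 array each. They stably express FoxO1(TA)ERT2 or FoxO3(TA)ERT2, in which the AKT phosphorylation sites were mutated to alanine and the T2-modified estrogen receptor moiety, ERT2, was joined on. The controls were RCC4 EV and UMRC2 EV, with 1 array each, which the labels name empty vector and describe as expressing ERT2 alone. All lines were grown in DMEM with serum under puromycin selection, and the other 6 arrays hold the same lines after 100 nM 4-hydroxytamoxifen (4OHT) for 12 h. The promoter that drives the constructs, and whether a line is 1 clone or a pool, are not given in the sources used here.

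FoxO1 and FoxO3 are forkhead transcription factors that AKT holds in the cytoplasm when insulin or growth factor signalling is active. The alanine mutations remove that brake, and the ERT2 moiety puts another in its place: heat shock protein complexes hold an ERT2 fusion out of action until 4OHT binds. Systems of this kind are known to leak when the fusion is abundant. In kidney cancer cells FoxO factors act as growth suppressors, with cyclin D1 and MYC among the genes they lower.

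By the ESR1 probe sets, fusion transcript was abundant without 4OHT, and FoxO3 fusion transcript was the more abundant in both lines. The arrays measure RNA, so the amount of fusion protein is not known from them. Of 9 ESR1 probe sets on the array, 5 stood log2 2 or more over EV in each of the fusion lines. Their median log2 intensity, called the ESR1 level here, was 12.49 in RCC4 FoxO3 cells and 9.22 in RCC4 FoxO1 cells, against 5.28 in RCC4 EV cells. In UMRC2 it was 13.23 in FoxO3 cells and 12.29 in FoxO1 cells, against 4.63 in EV cells. Both EV values lay near the floor of 4.21 set on low intensities, although the labels say that EV cells express ERT2. The FoxO3 lines had 9.16 times the ESR1 signal of the FoxO1 line in RCC4 and 2.08 times in UMRC2, so the 4 lines span a wide range with RCC4 FoxO1 far below the others. With 4OHT the ESR1 level was 8.74, 12.10, 11.91 and 12.56 in RCC4 FoxO1, RCC4 FoxO3, UMRC2 FoxO1 and UMRC2 FoxO3 cells. The FOXO1 and FOXO3 probe sets did not follow the constructs: the brightest FOXO1 probe set read 6.50 in RCC4 FoxO1 cells against 6.46 in RCC4 EV cells, and 7.12 in UMRC2 FoxO1 cells against 6.78 in UMRC2 EV cells. The brightest FOXO3 probe set read 10.19 in RCC4 FoxO3 cells against 10.38 in RCC4 EV cells, and 11.58 in UMRC2 FoxO3 cells against 11.65 in UMRC2 EV cells. Where these probe sets lie relative to the cloned coding sequences was not examined, so they check nothing about the constructs.

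**Figure D1:**
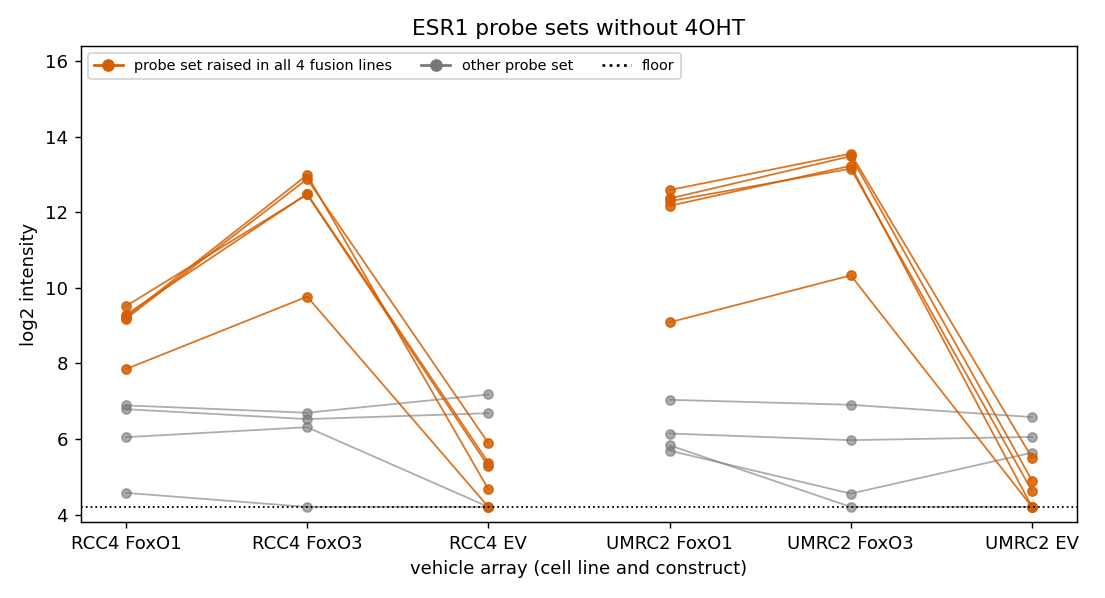
Log2 intensity of the 9 ESR1 probe sets (y axis) in the 6 vehicle arrays (x axis, cell line and construct); each line joins 1 probe set within a cell line, and the dotted line is the floor of 4.21. The 5 orange probe sets are high in the fusion lines and low in EV, and RCC4 FoxO1 is the lowest fusion line.

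The 6 vehicle arrays had similar 3'/5' ratios of GAPDH, from 0.917 to 1.02, but the deposited scale differed between the cell lines. Array medians of the deposited intensities ran from 129.6 to 134 over the RCC4 vehicle arrays and from 81.1 to 88.7 over those of UMRC2. Of 6 kidney epithelial and renal carcinoma markers found, 5 were above the array median in all 6 vehicle arrays. The log2 of the summed intensity of these kidney markers was 15.07 to 15.25 in fusion lines and 15.21 to 15.30 in EV. VIM, the brightest, read 14.22 to 14.41, so the sum says little about dimmer members such as CDH6. Of 7 leukocyte markers found none was above the array median in all 6, and of 5 endothelial markers 1 was. Of 6 fibroblast markers 2 were, the collagen chain COL1A1 and the proteoglycan DCN. The spike-in controls of the RCC4 FoxO3 array with 4OHT had a geometric mean of 2515, against 4212 to 4699 on the other 5 RCC4 arrays. On the UMRC2 arrays it was 2239 to 2463, so in this the RCC4 FoxO3 array with 4OHT resembled them. The RCC4 FoxO3 responses and the UMRC2 FoxO3 responders rest on that array, and its part in them was not tested.

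In the main fits no single gene passed the test between fusion and EV cells without 4OHT, and ESR1 did not pass either. A test that does not call ESR1 cannot show that other genes were unchanged. With the 2 cell lines as the replicates, so that p-values measure the spread between single arrays of different lines, limma called 0 of 14282 genes (0%) at an adjusted p under 0.05 for the mean of the 4 fusion lines against EV. ESR1 had the smallest adjusted p, 0.113 by limma with Benjamini-Hochberg adjustment, at 7.0 ± 0.54 (SE) on the log2 scale and higher in 4 of 4 lines. An unadjusted p under 0.05 was reached by 1031 genes (7.22%). Taken alone, FoxO1 against EV also gave 0 calls in limma, and 929 genes (6.5%) had a raw p under 0.05. FoxO3 against EV gave 0 calls in limma as well, with 835 genes (5.85%) at that level. Each contrast rests on 2 residual degrees of freedom, and the median SE of 0.14 for the mean of the 4 lines sets what could be called. Without the UMRC2 FoxO1 array, where the lone RCC4 FoxO1 array is assumed to vary like the others, limma called 4 genes in the mean contrast: ESR1, APP, CDH6 and ERGIC1 (APP and ERGIC1 are named after their values were seen). CDH6 encodes kidney cadherin and is 1 of the kidney markers. It read 6.23 in RCC4 FoxO1 and 7.72 in RCC4 FoxO3 cells, against 8.73 in RCC4 EV cells. In UMRC2 it read 11.05 in FoxO1 and 11.11 in FoxO3 cells, against 11.99 in EV cells, so CDH6 was lower in all 4 fusion lines.

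Line by line, the vehicle difference (log2 of fusion minus EV within a cell line) was small for most genes. Its SD over the 14282 genes was 0.48 in both RCC4 fusion lines and 0.51 in both UMRC2 fusion lines. The same EV cells with 4OHT against vehicle gave an SD of 0.46 in RCC4 and 0.50 in UMRC2, so a fusion line without inducer stood about as far from EV as EV stood from itself after 4OHT. The 4OHT minus vehicle change of the fusion lines themselves had an SD of 0.95 with FoxO3 and 0.60 with FoxO1 in RCC4, and of 0.88 with FoxO3 and 0.63 with FoxO1 in UMRC2. Vehicle differences of at least log2 1 were mostly in dim genes. In RCC4 FoxO1, 397 genes (2.78%) were that much higher and 384 (2.69%) lower, but among 11744 genes at or above the array median in both arrays 33 were higher and 35 lower. RCC4 FoxO3 had 355 higher (2.49%) and 383 lower (2.68%), UMRC2 FoxO1 461 (3.23%) and 347 (2.43%), and UMRC2 FoxO3 443 (3.1%) and 364 (2.55%). This change passed log2 1 upwards in 4.13% and downwards in 3.87% of genes in RCC4 FoxO1, and in 9.89% and 12.2% in RCC4 FoxO3. In UMRC2 these shares were 4.48% and 4.31% with FoxO1, and 8.67% and 10.9% with FoxO3. The 4OHT response of a fusion line is this change less that of EV cells of the same line.

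The medians of genes that 4OHT moves lay close to those of all genes without 4OHT. To keep the arrays apart, responders of a construct were taken from the other cell line, as genes whose response and uncorrected 4OHT change there were both at least log2 1, and their vehicle difference was read in the line in question. In RCC4 FoxO1 cells the 481 up responders had a median vehicle difference of 0.00 on the log2 scale, against -0.01 over all genes, while their own 4OHT response there had a median of 0.34. The 1035 up responders of RCC4 FoxO3 cells had a median of 0.00, against 0.00 over all genes, beside a response of 1.12. In these RCC4 lines 49.5% of the FoxO1 and 47.6% of the FoxO3 up responders were above EV, against 46.8% and 49% of all genes. The 433 up responders of UMRC2 FoxO1 cells had a median of 0.06, against 0.01 over all genes, beside a response of 0.46. The 1196 up responders of UMRC2 FoxO3 cells had a median of 0.04, against 0.00 over all genes, beside a response of 0.95. There 52.9% and 55.9% were above EV, against 51.6% and 50.6% of all genes. These differences between lines were not tested, and for FoxO1 their order turned with the scaling: with trimmed-mean scaling the FoxO1 up responders had a median of 0.041 in RCC4 and 0.032 in UMRC2, against 0.00 and 0.01 over all genes. With values as deposited they had -0.066 in RCC4 and 0.218 in UMRC2, against -0.133 and 0.188 over all genes. A gene at the floor in both vehicle arrays has a difference of 0, and no leak can be seen in it. Up responders at or above the array median in both vehicle arrays had medians of 0.015 in RCC4 FoxO1 (288 genes) and -0.003 in RCC4 FoxO3 (728 genes). All such genes had -0.013 and -0.002. In UMRC2 these medians were 0.063 with FoxO1 (226 genes) and 0.047 with FoxO3 (848 genes), against 0.008 and 0.003.

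Down responders also had medians close to those of all genes. Their median vehicle difference was -0.02 in RCC4 FoxO1 (472 genes), 0.00 in RCC4 FoxO3 (1331 genes), 0.00 in UMRC2 FoxO1 (435 genes) and -0.01 in UMRC2 FoxO3 (1502 genes). In RCC4, 45.3% of the FoxO1 and 50.3% of the FoxO3 down responders were above EV, against 46.8% and 49% of all genes. In UMRC2 it was 49.4% of the FoxO1 and 46.6% of the FoxO3 down responders, against 51.6% and 50.6% of all genes. The own responses of the down responders had medians of -0.37, -1.08, -0.25 and -1.0 in RCC4 FoxO1, RCC4 FoxO3, UMRC2 FoxO1 and UMRC2 FoxO3. Responders past log2 1 without 4OHT were found on both sides. In UMRC2 FoxO1 cells 10.4% of up responders were at least log2 1 above EV, against 3.23% of all genes, but 7.62% were at least log2 1 below, against 2.43%. Among the 226 up responders at or above the array median in both vehicle arrays of that line, 4 were past log2 1 upwards and 3 downwards. Up responders of log2 3 or more had vehicle medians of 0.00 in RCC4 FoxO1 (58 genes), 0.01 in RCC4 FoxO3 (122 genes), 0.21 in UMRC2 FoxO1 (60 genes) and 0.04 in UMRC2 FoxO3 (133 genes). The step from log2 2 to 3 had medians of 0.00 in UMRC2 FoxO1 (126 genes) and 0.10 in RCC4 FoxO1 (112 genes), beside own responses of 0.58 and 0.13. Of all up responders, 24.9% in RCC4 FoxO1 and 30.5% in UMRC2 FoxO1 had an own response of at least log2 1. With FoxO3 it was 54.5% in RCC4 and 48.5% in UMRC2. Most FoxO1 up responders thus did not respond that much where they were read. By a small margin the same holds for the up responders of UMRC2 FoxO3. The vehicle medians of these sets say less about leak. When both the response and the uncorrected change had to reach log2 2, the up responders of UMRC2 FoxO1 had a median of 0.17 over 101 genes, with 14.9% at least log2 1 above EV and 5.94% at least log2 1 below. Of these, the 42 at or above the array median in both vehicle arrays had a median of 0.09, with 1 past log2 1 upwards and 1 downwards. The 84 down responders by that rule in UMRC2 FoxO1 had 13.1% at least log2 1 above EV and 10.7% at least log2 1 below.

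**Figure D2:**
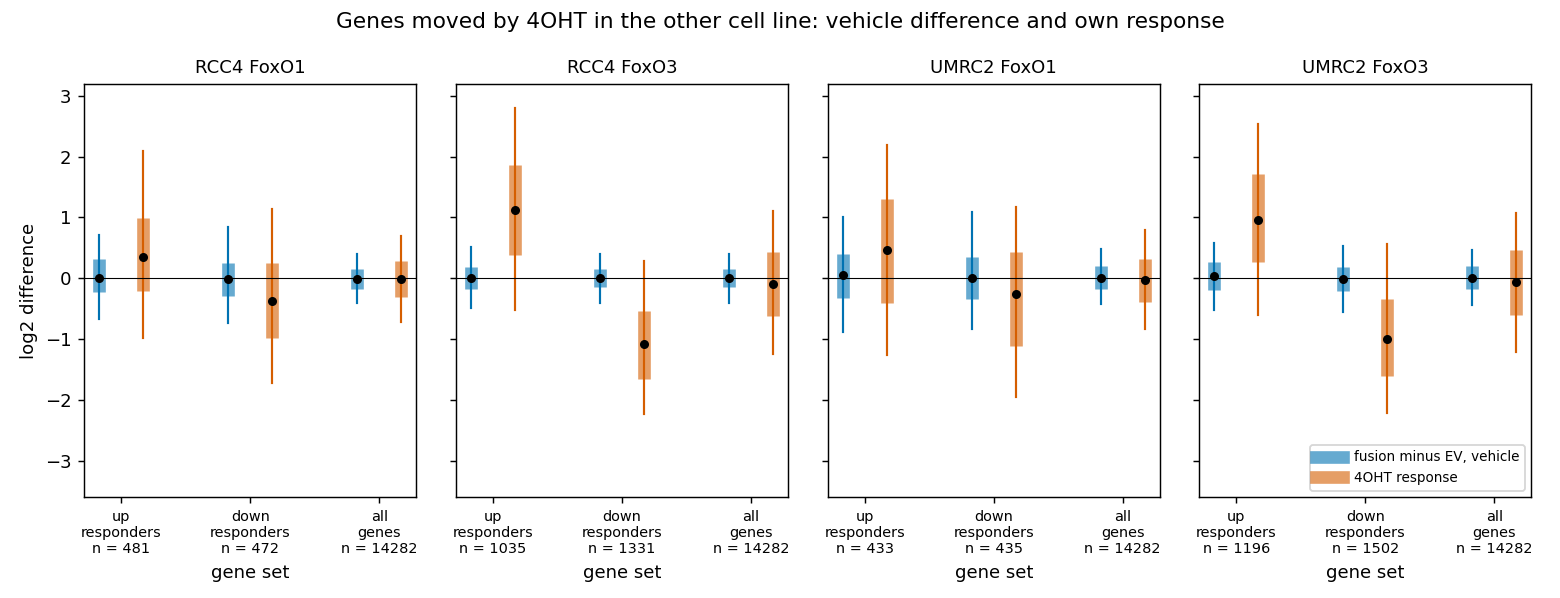
Log2 difference (y axis) of up responders, down responders and all genes (x axis, with the number of genes) in each fusion line; blue is fusion minus EV with vehicle, orange the 4OHT response, the dot the median, the thick bar the quartiles and the thin line the lowest to highest decile. The blue medians sit between -0.02 and 0.06 in every set, and the orange medians reach 1.12 and -1.08 in RCC4 FoxO3.

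The lean did not follow the ESR1 level in a simple order. Ranked by ESR1 level, RCC4 FoxO1 (9.22), UMRC2 FoxO1 (12.29), RCC4 FoxO3 (12.49) and UMRC2 FoxO3 (13.23) had up responder medians of 0.00, 0.06, 0.00 and 0.04. UMRC2 FoxO1 and RCC4 FoxO3 had nearly the same ESR1 level. The UMRC2 line had the higher median in each construct, but with trimmed-mean scaling that did not hold for FoxO1. With 4 lines, construct, cell line and ESR1 level cannot be told apart. FoxO3 minus FoxO1 with vehicle, a comparison without any EV array, gave a median of 0.04 for the FoxO3 up responders of RCC4, where FoxO3 cells had 9.16 times the ESR1 signal, against 0.01 over all genes. In UMRC2, where the ratio was 2.08, the median was 0.01 against 0.00 over all genes. The FoxO1 up responders went the other way, with -0.0044 in RCC4 and -0.05 in UMRC2. When the up responders of the other construct were read instead, the vehicle median of UMRC2 FoxO3 cells was 0.00 over 433 genes chosen in RCC4 FoxO1. This reading does not use the RCC4 FoxO3 array with 4OHT, but it changes the construct and the number of genes as well. UMRC2 FoxO1 cells, read with the 1196 genes chosen in RCC4 FoxO3, had 0.01.

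**Figure D3:**
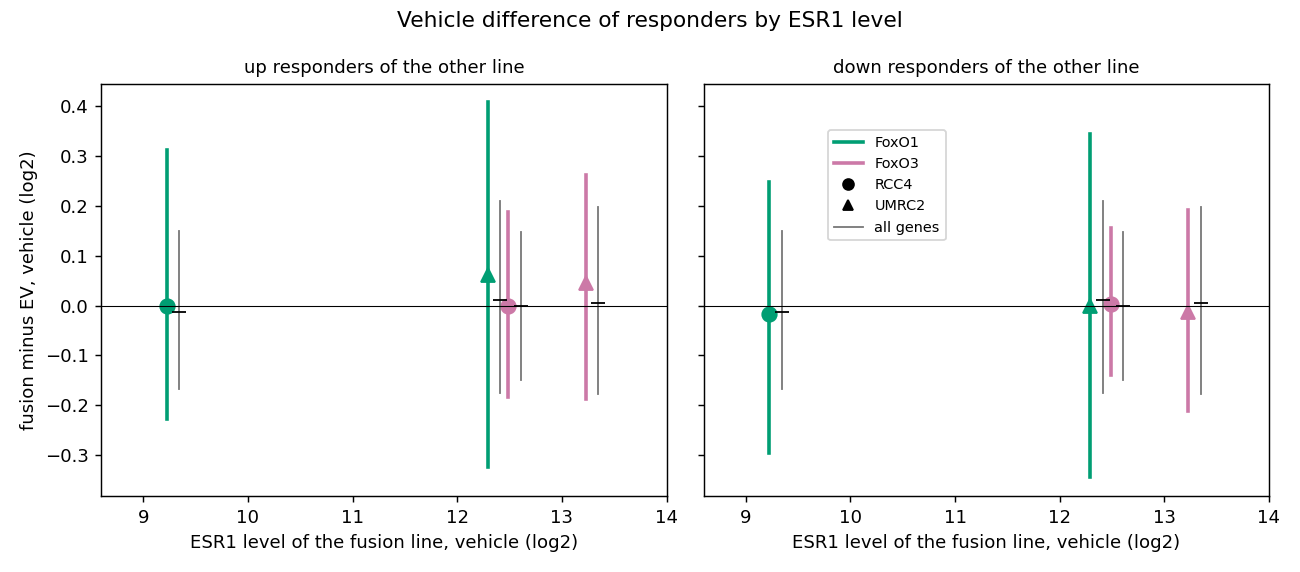
Median vehicle difference (y axis, log2, with quartiles as bars) of the up responders (left) and down responders (right) against the ESR1 level of the fusion line with vehicle (x axis, log2); colour gives the construct, the symbol the cell line, and the thin grey bars all genes. Medians lie between -0.02 and 0.06 across ESR1 levels of 9.22 to 13.23.

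Known FoxO targets had medians close to those of all genes in RCC4 and somewhat above them in UMRC2, most so in UMRC2 FoxO1. Of a list of 56 targets, 50 passed the filter on dim genes. The median vehicle difference over them was -0.03 with FoxO3 and 0.01 with FoxO1 in RCC4, where all genes had 0.00 and -0.01. In UMRC2 it was 0.05 with FoxO3 and 0.11 with FoxO1, where all genes had 0.00 and 0.01. Their 4OHT responses in RCC4 FoxO1, RCC4 FoxO3, UMRC2 FoxO1 and UMRC2 FoxO3 had medians of 0.23, 1.17, 0.19 and 1.16. A response of at least log2 1 in size was reached by 15, 34, 18 and 30 of the 50 in these lines, and of those targets 0, 0, 1 and 1 also had a vehicle difference of at least log2 1 in size. These were SESN3, a sestrin that restrains mTORC1, in UMRC2 FoxO1 (-1.14) and G6PC1, the glucose-6-phosphatase of gluconeogenesis, in UMRC2 FoxO3 (-1.20), both below EV. This choice by own response shares the vehicle arrays with the vehicle difference at opposite sign, so it favours targets below EV. Without that choice, 1 of the 50 in each line had a vehicle difference of that size. Each was below EV, with the lowest at -2.80 in RCC4 FoxO1. Of the 50, 7 were above EV in 4 of 4 lines (14%, against 13.2% of all genes) and 6 were below EV in 4 of 4 lines (12%, against 13.9%). limma called 0 of the 50 against EV in the mean, FoxO1 or FoxO3 contrast. In the mean contrast 3 were higher and 5 lower at an unadjusted p under 0.05 (16%, against 7.22% of all genes).

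IGFBP1, an insulin-like growth factor binding protein and a classic FoxO target, read 14.17 in RCC4 FoxO1 cells with 4OHT and 4.35 with vehicle, against 4.21 in RCC4 EV cells with vehicle. In RCC4 FoxO3 cells it read 14.62 with 4OHT and 5.03 with vehicle. IGFBP1 was dim in every vehicle array, between 4.21 and 5.44. In UMRC2 it read 6.38 in FoxO1 and 7.21 in FoxO3 cells with 4OHT, and 5.44 and 4.21 with vehicle. SLC40A1, the iron exporter ferroportin, read 12.50 in RCC4 FoxO3 cells with 4OHT and 6.28 with vehicle, against 6.27 in RCC4 EV cells with vehicle. In UMRC2 FoxO3 cells it read 12.26 with 4OHT and 6.61 with vehicle, against 6.45 in UMRC2 EV cells. Its vehicle differences of 0.02, 0.01, 0.35 and 0.16 (RCC4 FoxO1, RCC4 FoxO3, UMRC2 FoxO1 and UMRC2 FoxO3) compare with responses of 2.81, 6.25, 4.18 and 5.53. CLTRN, the kidney protein collectrin that chaperones amino acid transporters, had vehicle differences of -0.11, -0.45, 0.58 and -0.34 and responses of 4.43, 5.26, 5.54 and 6.26 in the same lines. TPPP, a tubulin polymerization promoting protein, had vehicle differences of 0.01, 0.61, -0.57 and 0.01 and responses of 2.55, 7.60, 3.59 and 7.12. Among these 4 genes vehicle differences ran from -0.78 (IGFBP1 in UMRC2 FoxO3) to 0.82 (IGFBP1 in RCC4 FoxO3).

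BTG1, an antiproliferative adaptor, read 11.07 in RCC4 FoxO1 and 10.87 in RCC4 FoxO3 cells with vehicle, against 11.09 in RCC4 EV cells. In UMRC2 it read 11.87 in FoxO1 and 11.83 in FoxO3 cells, against 11.70 in EV cells, and its responses were 1.76, 2.96, 1.30 and 2.19. KLF6, a zinc finger transcription factor, had vehicle differences between -0.12 and 0.26, and CITED2, which restrains HIF, between -0.07 and 0.25, with responses from 1.07 to 2.92 and from 1.17 to 2.90. CDKN1B, the cyclin-dependent kinase inhibitor p27, was slightly below EV in RCC4 (-0.22 and -0.13) and slightly above in UMRC2 (0.27 and 0.21). TNFSF10, the death ligand TRAIL, had vehicle differences of -0.14, 0.38, -0.27 and 0.05 beside responses of 3.44, 4.67, 1.64 and 1.88. DEPP1, a small FoxO-induced protein with vehicle differences of 0.64, -0.10, 0.34 and 0.20, was at 4.94 in RCC4 FoxO1 and 4.21 in RCC4 FoxO3 cells with vehicle, against 4.30 in RCC4 EV cells. In UMRC2 DEPP1 was high in every vehicle array, at 10.49 in FoxO1 and 10.35 in FoxO3 cells, against 10.15 in EV cells. Its basal level differed between the cell lines by far more than between fusion and EV cells.

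A few targets were above EV in 4 of 4 lines by small amounts, none past the test. CCNG2, the atypical cyclin G2, had vehicle differences of 0.24, 0.17, 0.53 and 0.46 and responses of 0.38, 2.13, 0.81 and 2.04. Its mean vehicle difference was 0.35 ± 0.10 (SE), with an adjusted p of 0.67 by limma and a value above 0 in 4 of 4 lines. With the mean of its probe sets in place of the brightest, the difference was 0.032. MXI1, an antagonist of MYC, stood 0.03, 0.30, 0.38 and 0.53 above EV beside responses of 0.09, 1.82, -0.14 and 0.89. PIK3IP1, an inhibitor of phosphoinositide 3-kinase, stood 0.12, 0.12, 0.44 and 0.65 above EV, and the FoxO3 responses of PIK3IP1 were 4.38 in RCC4 and 4.76 in UMRC2. SOD2, the mitochondrial superoxide dismutase, stood 0.29, 0.11, 0.42 and 0.36 above EV. Others leaned away. SESN2, a stress-induced sestrin, was below EV in 4 of 4 lines, with vehicle differences of -0.56, -0.42, -0.50 and -0.68 and responses of 0.22, 0.52, 0.77 and 0.70.

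Among the lowered genes CCND1, MYC, AEN and EFNA3, vehicle values lay close to EV or above it, with 1 exception. CCND1, cyclin D1, read 7.62 in RCC4 FoxO1 and 6.74 in RCC4 FoxO3 cells with 4OHT, and 9.53 and 9.48 with vehicle, against 9.41 in RCC4 EV cells with vehicle. In UMRC2 it read 8.96 in FoxO1 and 8.74 in FoxO3 cells with 4OHT, and 11.28 and 11.42 with vehicle, against 11.39 in EV cells with vehicle. MYC, the growth-promoting transcription factor, had vehicle differences of 0.31, 0.35, -0.10 and 0.20 beside responses of -1.78, -3.16, -2.14 and -1.80. AEN, a p53-induced nuclease, was above EV in 4 of 4 lines with vehicle, by 0.36, 0.55, 0.29 and 0.45, and its responses were -1.12, -3.69, -2.08 and -3.34, so it stood opposite to the response. EFNA3, an ephrin ligand, was the exception, in 1 line. It read at the floor of 4.21 in RCC4 FoxO1 cells with vehicle, against 7.31 in RCC4 EV cells, whereas the other 3 fusion lines lay 0.07 to 0.30 above EV.

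**Figure D4:**
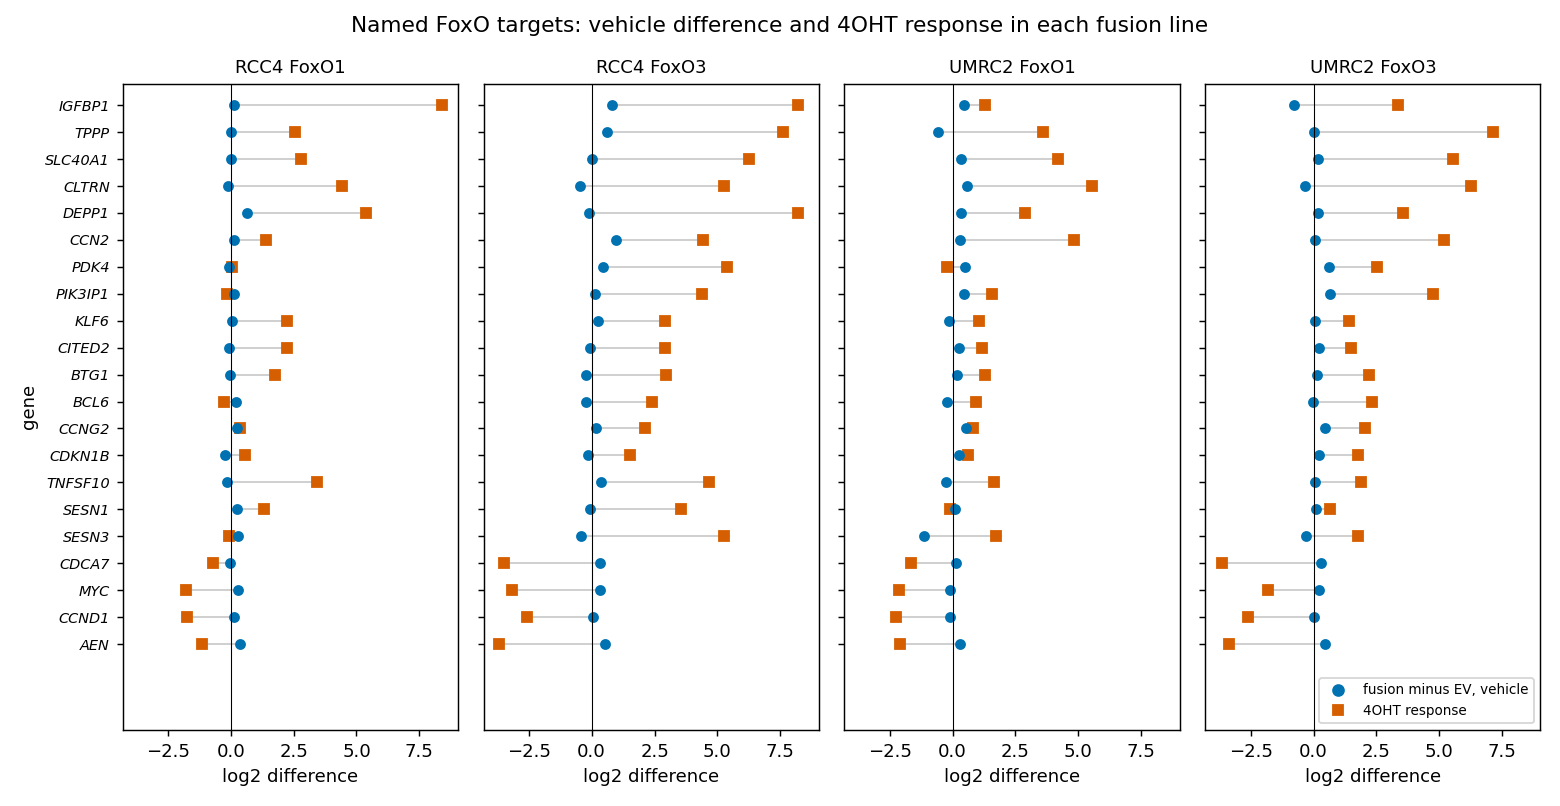
Vehicle difference (blue circle, fusion minus EV) and 4OHT response (orange square) in log2 (x axis) for a part of the named FoxO targets and lowered genes (y axis) in the 4 fusion lines. Blue circles lie close to 0 on this scale for nearly all genes drawn. IGFBP1, at 0.14 in RCC4 FoxO1 beside a response of 8.42, was dim with vehicle. Not drawn are EFNA3, at the floor in RCC4 FoxO1 with vehicle, and P2RY2, with vehicle differences from 1.13 to 2.81.

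Of 10 named genes whose response was at least log2 1 in all 4 lines, 9 had a promoter window in RefSeq (GRCh38.p14, 300 bases, 250 before to 50 after the transcription start). The windows of 4 of these 9 hold a forkhead motif, and they are shown because these genes responded to 4OHT in every line and carry such a motif near their start. The FoxO core was searched as GTAAACA on both strands and was found in 931 of 27305 windows (3.41%). The insulin response element, a forkhead site named for insulin-repressed genes, was searched as AAAACAA on both strands and was found in 2070 (7.58%). Of the 23 named genes with a window, 3 (13.0%) hold the core and 4 (17.4%) the insulin response element. FOXO4, CCNG2 and SESN3 hold a motif too, without a response of at least log2 1 in all 4 lines. Whether the motifs go with the response was not tested. Capitals mark the motif in each 5′ to 3′ window. A match is only a match of letters.
DEPP1 (chr10:44978760-44979059, minus strand): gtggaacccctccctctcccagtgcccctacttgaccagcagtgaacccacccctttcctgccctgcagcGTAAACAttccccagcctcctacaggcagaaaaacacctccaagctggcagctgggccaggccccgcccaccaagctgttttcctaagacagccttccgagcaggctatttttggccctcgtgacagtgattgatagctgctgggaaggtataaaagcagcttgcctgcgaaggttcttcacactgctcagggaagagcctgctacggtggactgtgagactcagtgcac
BTG1 (chr12:92145797-92146096, minus strand): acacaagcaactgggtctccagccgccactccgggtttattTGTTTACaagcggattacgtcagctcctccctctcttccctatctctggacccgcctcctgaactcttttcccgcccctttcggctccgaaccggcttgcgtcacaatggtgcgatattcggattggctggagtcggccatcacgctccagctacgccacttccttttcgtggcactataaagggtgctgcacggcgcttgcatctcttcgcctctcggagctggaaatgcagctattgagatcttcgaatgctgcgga
CLTRN (chrX:15664756-15665055, minus strand): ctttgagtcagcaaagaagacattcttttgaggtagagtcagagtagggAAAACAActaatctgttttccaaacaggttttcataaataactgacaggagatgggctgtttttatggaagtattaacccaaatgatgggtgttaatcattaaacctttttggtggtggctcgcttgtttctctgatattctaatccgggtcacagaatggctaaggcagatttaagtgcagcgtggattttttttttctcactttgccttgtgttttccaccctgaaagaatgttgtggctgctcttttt
TNFSF10 (chr3:172523381-172523680, minus strand): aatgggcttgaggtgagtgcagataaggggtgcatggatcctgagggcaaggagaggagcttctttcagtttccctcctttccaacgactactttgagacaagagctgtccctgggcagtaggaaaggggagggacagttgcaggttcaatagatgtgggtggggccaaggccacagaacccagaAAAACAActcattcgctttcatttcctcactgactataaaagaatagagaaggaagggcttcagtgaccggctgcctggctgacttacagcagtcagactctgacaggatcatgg

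With vehicle, the means of the differences from EV over the 4 lines were 0.27 for DEPP1, 0.01 for BTG1, -0.08 for CLTRN and 0.01 for TNFSF10, and limma gave adjusted p-values of 0.80, 0.98, 0.96 and 0.99. None of these 4 genes passed the test without 4OHT.

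Cell cycle genes showed a small shift that was shared by the 4 lines. Of 42 G2/M and mitosis genes tested, 23 (54.8%) were below EV in 4 of 4 lines, against 13.9% of all genes, and 1 was above in 4 of 4. Their median vehicle differences were -0.08, -0.06, -0.21 and -0.08 in RCC4 FoxO1, RCC4 FoxO3, UMRC2 FoxO1 and UMRC2 FoxO3. Of 40 G1/S and DNA replication genes, 16 (40%) were above EV in 4 of 4 lines, against 13.2% of all genes, and 0 were below in 4 of 4. Their medians were 0.07, 0.08, 0.13 and 0.09. In bulk RNA, fewer cells in a phase and less RNA per cell cannot be told apart. Both fusion lines of a cell line share its EV array, so these counts are of lines that are not independent. limma called 0 genes of either list. At an unadjusted p under 0.05, 9 G2/M genes were lower (21.4%) and 8 G1/S genes higher (20%), against 7.22% of all genes in either direction, and 0 of either list went the other way. The 4OHT responses were -1.10 and -1.03 for the G2/M list in the RCC4 and UMRC2 FoxO3 lines and -1.16 and -1.20 for the G1/S list, so the G1/S lean was opposite to the response. In the FoxO1 lines they were 0.02 in RCC4 and -0.03 in UMRC2 for the G2/M list, whose vehicle median was lowest in UMRC2 FoxO1, and -0.29 and -0.56 for the G1/S list. AURKA, a mitotic kinase, read 11.74 in RCC4 FoxO1 and 11.79 in RCC4 FoxO3 cells with vehicle, against 12.03 in RCC4 EV cells. In UMRC2 AURKA read 11.34 in FoxO1 and 11.44 in FoxO3 cells, against 11.58 in EV cells. PLK1, another mitotic kinase, had vehicle differences of -0.19, -0.16, -0.58 and -0.44. E2F2, an activator of S phase genes, had 0.36, 0.29, 0.67 and 0.52. With values as deposited, where the medians of all genes were -0.13, -0.09, 0.19 and 0.10 in these lines, the G2/M median of UMRC2 FoxO3 was 0.04 and the G1/S median of RCC4 FoxO1 was -0.06. Set against those shifts of all genes, the direction was the same as after scaling.

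Medians of the other programs lay between -0.05 and 0.14. The highest was that of 29 interferon-stimulated genes, with 0.02, 0.14, 0.01 and 0.00 in RCC4 FoxO1, RCC4 FoxO3, UMRC2 FoxO1 and UMRC2 FoxO3. Of 39 ribosome biogenesis genes the median vehicle differences were 0.01, 0.06, -0.01 and 0.00, beside responses of -0.51, -1.07, -0.72 and -1.29. The 22 genes of cholesterol and fatty acid synthesis had 0.01, 0.05, -0.05 and -0.01, beside FoxO3 responses of -1.15 in RCC4 and -1.38 in UMRC2. The 36 hypoxia-inducible genes had 0.01, -0.04, 0.09 and 0.10. The 39 autophagy and lysosome genes had -0.04, -0.01, 0.09 and 0.11, and 16 estrogen receptor targets had 0.00, 0.01, -0.01 and 0.05. In the autophagy list OPTN, an autophagy receptor, was above EV in 4 of 4 lines by 0.47, 0.35, 0.37 and 0.38, with responses of 0.76, 1.6, 0.33 and 0.82. SREBF1, a master regulator of lipid synthesis, had vehicle differences of -1.01 and -0.94 in the RCC4 lines and 0.46 and 0.41 in the UMRC2 lines.

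**Figure D5:**
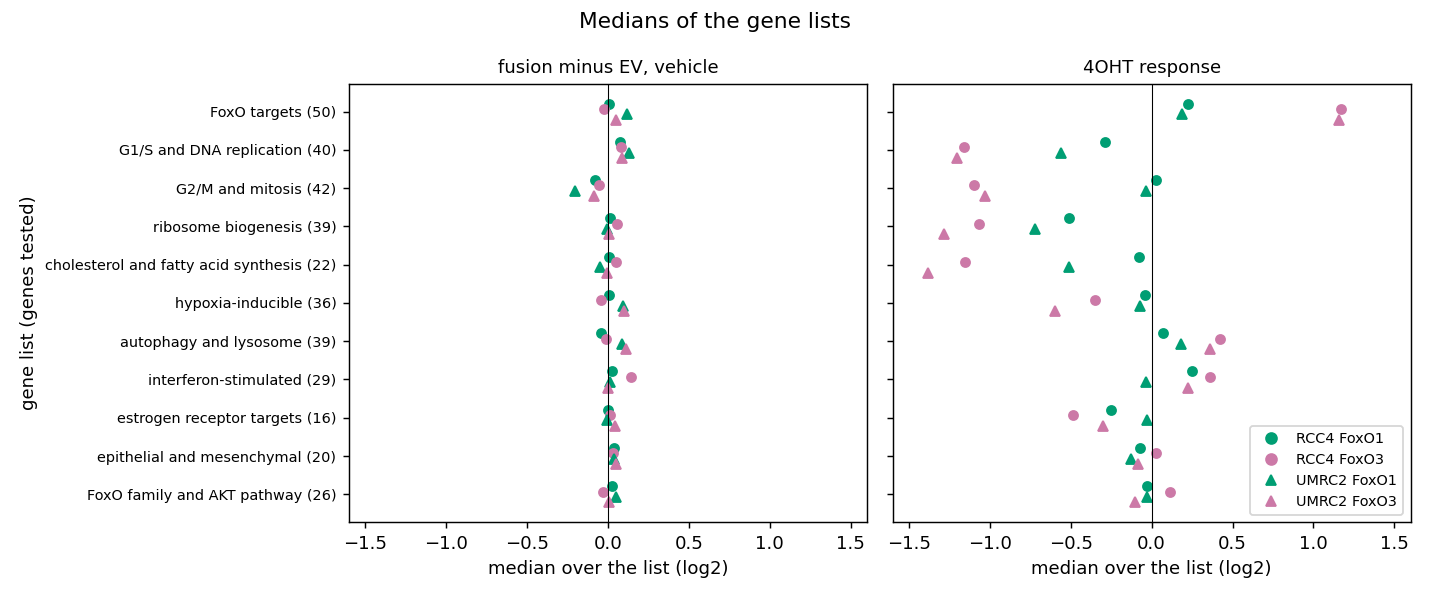
Median over each gene list (y axis, with the number of genes tested) of the vehicle difference (left) and of the 4OHT response (right), both in log2 (x axis); colour gives the construct and the symbol the cell line. Vehicle medians stay between -0.21 and 0.14, and the responses of the FoxO3 lines reach -1.38 and 1.17.

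Genes far from EV in every fusion line were few and dim. Apart from ESR1, 14 genes exceeded EV by log2 1 or more in 4 of 4 lines (with ESR1, 15 of 14282 or 0.105%), and 2 were at least log2 1 below (0.014%). All 14 were below the array median in both EV vehicle arrays, between 4.21 and 5.65, and none was above 7.69 in a fusion line with vehicle. EV cells with 4OHT were above EV cells with vehicle in both cell lines for 12 of the 14, by at least log2 1 for 10. Since all 4 differences rest on the same 2 EV arrays, these genes are also those at which the EV vehicle arrays read low. GABRB1, a GABA receptor subunit, read 6.77, 6.89, 6.48 and 5.88 in the 4 fusion lines with vehicle, against 4.37 in RCC4 EV and 4.49 in UMRC2 EV cells. EV cells with 4OHT read 6.03 and 6.34 for GABRB1. P2RY2, a nucleotide receptor, read 6.32, 5.96, 7.36 and 7.69 in the fusion lines with vehicle, against 4.83 and 4.88 in EV cells. With 4OHT P2RY2 read 6.48, 4.34, 5.34 and 4.21 in the fusion lines, against 6.53 and 7.24 in EV cells. LOC100996385, an uncharacterized locus, was the only one of the 14 that also stayed at least log2 1 above EV in 4 of 4 lines when all cells had 4OHT. It read 6.97, 6.67, 7.02 and 6.79 in the fusion lines with vehicle, against 4.64 and 5.01 in EV cells, and 7.44, 6.31, 7.23 and 7.21 with 4OHT, against 5.01 and 4.61 in EV cells with 4OHT. The 2 genes below EV were KLHL41, a muscle kelch protein, and GPM6A, a neuronal membrane glycoprotein. KLHL41 read 5.73, 5.59, 5.47 and 5.32 in the fusion lines, against 7.18 and 6.72 in EV cells.

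Between the constructs no gene passed the test without 4OHT. limma called 0 genes for FoxO3 minus FoxO1 (0%), with 400 (2.8%) at an unadjusted p under 0.05. The SD of the single-line differences was 0.48 in RCC4 and 0.43 in UMRC2. At least log2 1 higher with FoxO3 were 2.57% of genes in RCC4 and 1.87% in UMRC2, and lower 2.88% and 2.1%. Along the ESR1 level, with cell line as a term, 2 genes (0.014%) passed in limma, and 1281 (8.97%) had a raw p under 0.05. One was ESR1, which defines the level. The other was MT1G, a metallothionein that binds zinc and copper, with a slope of 0.0997 ± 0.0087 (SE) log2 per log2 of ESR1 level and an adjusted p of 0.0362 by limma. MT1G read 12.23 in RCC4 FoxO1 and 12.59 in RCC4 FoxO3 cells, against 12.00 in RCC4 EV cells. In UMRC2 it read 13.13 in FoxO1 and 13.17 in FoxO3 cells, against 12.25 in EV cells, so it was above EV in 4 of 4 lines. Its 4OHT response ran the other way in the lines with the higher ESR1 levels, at 0.06, -0.91, -0.88 and -1.76. With 4OHT MT1G read 12.60, 12.00, 12.94 and 12.11 in the fusion lines, against 12.32 in RCC4 EV and 12.94 in UMRC2 EV cells. The slope and the response share the vehicle arrays, so a low EV vehicle value raises the slope and lowers the response. Of 6 metallothionein genes tested, all 6 had a slope above 0, MT1G alone passed and 3 had an unadjusted p under 0.05 by limma. These paralogs are nearly identical and their probe sets may cross-hybridize. Without any 1 of the 5 vehicle arrays other than RCC4 EV the call of MT1G was lost, and with trimmed-mean scaling its adjusted p was 0.0739 by limma. With the mean of its probe sets the slope was 0.034 and the adjusted p 0.83 by limma.

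The vehicle difference was also compared between the cell lines. limma called 0 genes for the fusion effect in RCC4 minus that in UMRC2 (0%), with 1330 (9.31%) at an unadjusted p under 0.05. MYL10, a myosin light chain, had the largest mean difference among genes with the same sign in every single-line value and no vehicle value at the floor. It read 9.49 in RCC4 FoxO1 and 9.22 in RCC4 FoxO3 cells, against 6.37 in RCC4 EV cells. In UMRC2 it read 8.48 in FoxO1 and 6.04 in FoxO3 cells, against 9.31 in EV cells. RBL2, the pocket protein p130, had vehicle differences of -0.92 and -0.90 in RCC4 and of 0.13 and -0.07 in UMRC2, and an adjusted p of 0.48 by limma for the difference between lines.

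Single responders with a large lean are given for description. Among responders with no floor value in the vehicle pair, the up responders with the largest vehicle difference were INE1 in RCC4 FoxO1 (3.28), MYL10 in RCC4 FoxO3 (2.85), ANHX in UMRC2 FoxO1 (2.71) and MIAT, a long noncoding RNA, in UMRC2 FoxO3 (2.60). Their own responses in those lines were -2.42, -5.72, -2.66 and -2.80, opposite to the change that chose them in the other line. The vehicle difference and the own response use the same fusion and EV vehicle arrays with opposite signs, so a deviation in either array moves them apart. CASTOR3P, a pseudogene, was the exception among the leading genes in UMRC2: its vehicle differences there were 1.87 with FoxO1 and 2.52 with FoxO3, its responses there 0.56 and 1.51, and its levels with vehicle 7.46 and 8.11, against 5.58 in UMRC2 EV cells. In RCC4 CASTOR3P was at 5.60 in FoxO1 and 5.77 in FoxO3 cells with vehicle, against 5.73 in EV cells, and its responses there were 3.52 and 4.94.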

How the data were processed

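RNA of 12 cultures was measured on Affymetrix U133 Plus 2.0 arrays, 1 array per cell line, construct and treatment. The authors deposited linear intensity values per probe set made with MAS5, per the submitters' processing notes; the scaling target is not given in the sources used here. From these, all 12 arrays were quantile normalised, values under the 20th percentile (intensity 18.45) were set to it, and log2 was taken. Of 54675 probe sets 41097 had 1 gene symbol in GEO's annotation, 1801 several and 11721 none. The probe set with the highest mean stood for a gene, and 14282 of 19775 genes were kept, each at or over its array median on 2 or more arrays. Linear models of the 6 vehicle arrays (limma 3.58.1 under R 4.3.3, eBayes with trend) had construct and cell line as terms, with Benjamini-Hochberg adjustment at 0.05. The cell line serves as the block because same-numbered samples are of the same cell line. The slope used the ESR1 level in place of construct. The difference between cell lines was a separate fit, with the FoxO1 and FoxO3 lines of a cell line as its replicates. The contrasts against EV were tested on simulated data with known changes, and there they made more false calls than the nominal rate. For the responder medians, a known share of the response was added to the measured vehicle values. The error allowed there was larger than the added shifts, so passing does not show that small medians are recovered. The slope was not simulated. The number of arrays limits the precision. Genes were named by a rule: a set of FoxO genes and targets, the leading genes of each contrast with the same sign in every line and no floor value, the responders with the largest lean, and up to 4 members of each list. Members, lists and responders were chosen with earlier results of these data known. Alternatives were other scalings, floors, filters, probe set rules, priors and responder rules, no cell line term, and leaving out each array.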

Additional observations from a re-analysis of the deposited data

Results flagged for a closer look

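Opposite signs in the 2 cell lines or constructs, untested, were found for 3 lists. The median vehicle difference of the cholesterol and fatty acid synthesis list averaged 0.029 over the RCC4 lines and -0.027 over the UMRC2 lines, a difference of 0.056. That of the autophagy and lysosome list averaged -0.028 in RCC4 and 0.098 in UMRC2, a difference of -0.126, and averaging all probe sets of each gene put the RCC4 values above 0. That of the estrogen receptor targets averaged 0.030 over the FoxO3 lines and -0.0045 over the FoxO1 lines, a difference of 0.034. The difference was not tested in any of the 3, and both constructs of a cell line share its EV array.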

How the results depend on the processing

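Main counts of genes past the threshold were 0, with 2 for the slope on the ESR1 level. With values as deposited, limma called 1 gene, ESR1, in the fusion, FoxO1 and FoxO3 contrasts against EV, and 1 for the slope. The slope also gave 1 with trimmed-mean scaling, with the mean of probe sets and with no replicate block (no cell line term), and 0 with no filter on dim genes or a constant prior variance. The block changed no other call. The RCC4 minus UMRC2 contrast gave 213 genes with no filter, 198 of them with at least 3 of the 6 vehicle arrays at the floor. Leaving out 1 array at a time, where a lone sample is assumed to vary like the others, gave 0 to 4 genes for the fusion contrast, 0 to 4 for FoxO1, 0 to 1 for FoxO3, 0 to 2 for FoxO3 minus FoxO1 and 1 to 2 for the slope; the highest counts of the first 4 came without the UMRC2 FoxO1 array. The vehicle median of FoxO1 up responders, averaged over the cell lines, was 0.031; it was 0.076 as deposited (all genes 0.028), 0.087 at a threshold of log2 2, -0.017 with responders of the other isoform and 0.077 with responders of log2 2 under both isoforms. For FoxO1 down responders (-0.0083) it was 0.018 with the trimmed mean, 0.024 as deposited (all genes 0.028), 0.018 with the EV-corrected change alone and -0.031 for bright responders. For FoxO3 down responders (-0.0051) it was 0.0086 as deposited (all genes 0.0082), 0.017 with the other isoform and -0.018 with log2 2 under both isoforms. The bright and both-isoform rules were added after seeing the data. As deposited, all genes moved with the down responders; for the other moved values the cause was not tested. FoxO3 up responders stayed between 0 and 0.045. With 1 array per line and condition, small leaks in single genes were not detectable.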
